A study of Homo sapiens with 6 samples.

Results

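The HBS1L, MYB and AHI1 locus is a 600 kb stretch of human chromosome 6 (hg19, 135.25 to 135.85 Mb). It was examined in peak lists from NCI-H526, an established human small cell lung cancer cell line. Its members were all distinct intervals of 4 deposited ChIP-seq peak lists that touch this stretch: 19 of 45188 LSD1 peaks from cells given DMSO (the vehicle), 24 of 49597 LSD1 peaks from cells given an LSD1 inhibitor, 22 of 81619 H3K4me2 intervals and 23 of 94689 H3K4me1 intervals, both with DMSO. That makes 88 of 271093 intervals. The stretch was chosen by its values in these same lists, the fold enrichment and p-values that together give a raised background there, so those values are a description with no test. The labels call the treated cells GSK552, and the treatment text, which stands with every sample, gives GSK2879552 at 1 µM for 24 hours. The cells of all groups were grown in the same medium with serum. Each group had 1 library, so no comparison carries a p-value. The 2 input samples were not used here, and the marks were read with DMSO alone. The number of reads was not given in the sources used here.

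LSD1 (KDM1A) is a histone demethylase that erases H3K4me2 and H3K4me1, and it is often brought to DNA by repressors such as GFI1 and INSM1. H3K4me1 is a mark of enhancers. H3K4me2 is found at enhancers and around active gene starts, where H3K4me1 is usually low. MYB encodes a transcription factor of progenitor cells that acts as an oncogene in several cancers, and the stretch between HBS1L and MYB is known for distal MYB enhancers in blood cells. HBS1L encodes a GTPase that helps to rescue stalled ribosomes. AHI1 encodes a protein of the ciliary transition zone and is mutated in Joubert syndrome. MYB is read towards AHI1, while HBS1L and AHI1 are read in the opposite direction.

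Gene bodies were taken to 1 kb as HBS1L 135.282 to 135.424 Mb, MYB 135.502 to 135.54 Mb and AHI1 135.605 to 135.819 Mb. An interval was assigned by its centre, and distances are from the MYB start at 135.502 Mb, positive in the direction in which MYB is read. The MYB and AHI1 bodies are as long as in RefSeq (GRCh38.p14), at 38 against 37.9 kb and 214 against 214.2 kb. The HBS1L body of 142 kb is longer than the RefSeq gene of 94.4 kb by 47.6 kb.

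The 250 bases before each gene's RefSeq start are shown. The MYB and AHI1 starts carried H3K4me2 and LSD1, while none was found at the upper end of the HBS1L body. That end is not the RefSeq HBS1L start. The RefSeq start falls on a marked site 47.5 to 50.9 kb below that end, if hg19 keeps the GRCh38 distance from the MYB start. This site held H3K4me2, and LSD1 with inhibitor only. They are the RefSeq sequences of GRCh38.p14, 5′ to 3′ on the gene's strand. MYB is at chr6:135181058-135181307 (plus strand), AHI1 at chr6:135497741-135497990 (minus strand) and HBS1L at chr6:135054823-135055072 (minus strand). Capitals mark a GC box (GGGCGG), an E2F match (TTTGGCG) or a cyclic AMP response element (TGACGTCA), searched on both strands.
MYB: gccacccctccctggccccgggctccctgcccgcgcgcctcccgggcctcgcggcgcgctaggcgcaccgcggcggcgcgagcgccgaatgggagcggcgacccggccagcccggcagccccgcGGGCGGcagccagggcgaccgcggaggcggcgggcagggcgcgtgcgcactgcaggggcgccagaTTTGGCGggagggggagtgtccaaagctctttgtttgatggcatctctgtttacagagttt
AHI1: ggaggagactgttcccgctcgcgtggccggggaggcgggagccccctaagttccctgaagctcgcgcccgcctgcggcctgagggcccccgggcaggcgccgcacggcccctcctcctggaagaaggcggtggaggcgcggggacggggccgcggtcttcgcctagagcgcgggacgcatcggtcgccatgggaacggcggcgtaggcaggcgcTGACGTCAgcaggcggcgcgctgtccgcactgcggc
HBS1L: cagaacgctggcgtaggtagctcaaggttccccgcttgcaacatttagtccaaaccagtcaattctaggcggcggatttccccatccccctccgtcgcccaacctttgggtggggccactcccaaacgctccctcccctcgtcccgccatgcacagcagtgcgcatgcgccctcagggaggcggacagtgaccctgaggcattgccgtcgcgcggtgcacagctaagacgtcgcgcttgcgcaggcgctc

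The MYB stretch holds 34 CG dinucleotides, more than 93.2% of the 35116 promoters of the same table, and AHI1 holds 35, more than 94.2%. HBS1L holds 22, more than 71.98%. The GC box of MYB begins 126 bases before the start and its E2F match 61 bases before it. GC boxes are found in 42.6% of all promoters, and the E2F letters in 1.59%. The response element of AHI1 begins 36 bases before the start, and its letters are found in 1.65% of promoters. The core of the GFI1 motif (AATC) was found at 63 bases before the MYB start, where it overlaps the E2F match, and at 176 bases before the HBS1L start. It was not found before AHI1 and is present in 64.8% of promoters. The letters AACNG of the MYB motif occur before MYB (15 bases) and before AHI1 (242 and 57 bases), and in 70.6% of promoters. These are matches of letters in the reference and not bound sites, and no peak was placed on them base by base because the peaks are on hg19.

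The locus held more LSD1 peaks for its length than chromosome 6. With DMSO it held 3.17 LSD1 peaks per 100 kb against 1.67 over chromosome 6, and with inhibitor 4.0 against 1.8. Of 284 windows of this size on chromosome 6, 33 held more LSD1 peaks with DMSO and 14 held more with inhibitor. Most LSD1 peaks of the locus, 14 with DMSO and 17 with inhibitor, had the raised implied background described below. Only 5 and 7 did not. The locus was chosen for that background, so its LSD1 density is not a separate result. H3K4me2 stood at 3.67 per 100 kb against 2.82, and H3K4me1 at 3.83 against 3.38, with 81 and 88 windows holding more. The median width was close to that of the lists, at 418 against 411 bp for H3K4me2 and 487 against 416 bp for H3K4me1, but a few intervals were several kb wide. H3K4me1 covered 5.83% of the locus against 2.25% of chromosome 6, and H3K4me2 4.48% against 2.08%. The MYB body was the densest segment. H3K4me1 covered 32.4% of it, H3K4me2 28.3%, LSD1 with DMSO 19.6% and LSD1 with inhibitor 20.9%, while over the AHI1 body these shares were 2.51, 2.69, 1.68 and 1.08%. Every interval of the MYB body had the raised background. Its covered shares, and their part in those of the locus, are therefore not a separate result either.

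**Figure D1:**
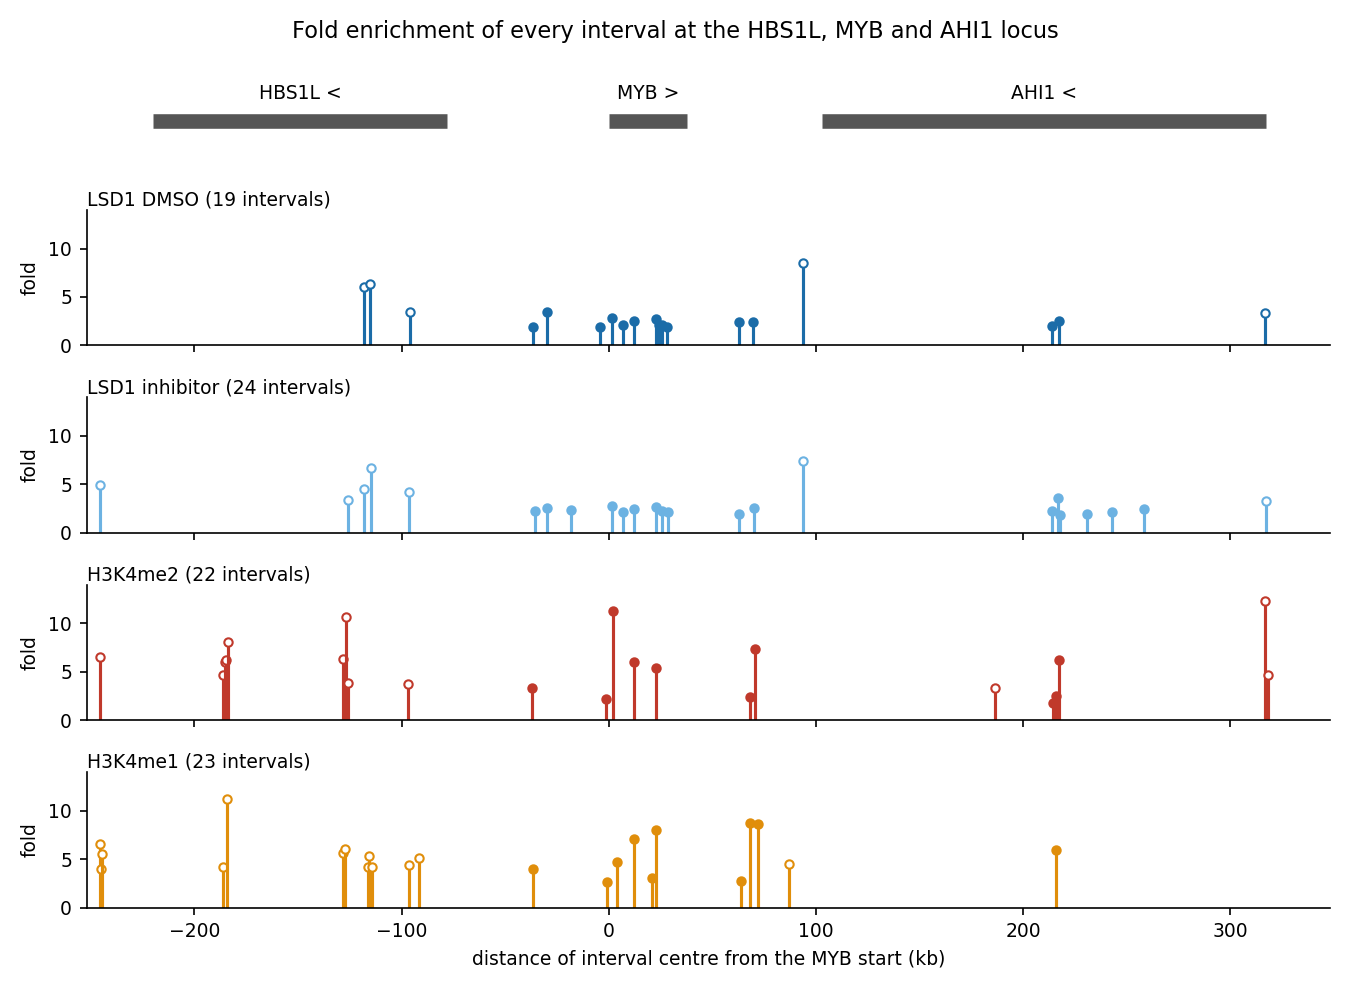
Highest fold enrichment (vertical axis) of each of the 88 intervals in the 4 lists against the distance of its centre from the MYB start (horizontal axis, kb), with the 3 gene bodies above and arrows for their direction. Filled points are the 51 intervals with a background above 6 times the list median. The filled LSD1 points lie between folds of 1.87 and 3.61, and the highest LSD1 folds are the open points at 93.5 and 93.8 kb.

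Most intervals at MYB had a raised implied background, which bears on every score below. The fold enrichment and the p-value of a row together give the background that the peak caller used and the number of fragments piled up there. With a pseudocount of 1 in the fold, this pileup came out within 0.05 of a whole number in 100% of the rows of both histone lists, and in 9.31 and 10.1% of rows with no pseudocount. In the LSD1 lists, which are broad peaks with no summit, the share was 14.6 and 10.2%, against 9.82 and 9.71% with no pseudocount. This check therefore does not bear out the LSD1 backgrounds, and 11.1% of inhibitor rows had no exact solution. The LSD1 backgrounds are approximate at best. Of the 88 intervals, 51 had a background above 6 times the median of their list. Such a background is rare: 0.401% of LSD1 peaks with DMSO, 0.327% with inhibitor, 0.132% of H3K4me2 and 0.2% of H3K4me1 intervals. The locus held 14 of 19, 17 of 24, 10 of 22 and 10 of 23, and since it was chosen for this, nothing is read from these counts. With no pseudocount the counts above 6 times were 4, 10, 6 and 10, and the same intervals still stood above all the others, at 4.21 to 11.1 times against 0.792 to 3.29.

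The raised intervals fell into 2 blocks, and 3 of the 4 intervals between them had ordinary background. The first block, chr6:135464672-135575969, spanned 111.3 kb and held 39 intervals of all 4 lists, at 9.43 to 23.8 times the list median (median 13.0). It took in the part of the HBS1L-MYB stretch nearest to MYB, the whole MYB body and the part of the stretch towards AHI1 nearest to MYB. The second block, chr6:135715352-135760355, spanned 45 kb inside the AHI1 body and held 12 intervals of all 4 lists at 9.39 to 21.8 times (median 13.9). Of the 4 intervals between the blocks, 3 stood near 1 times the median. The other, an H3K4me2 interval at chr6:135688453-135688768, stood at 5.50 times, below the cut of 6 but above the alternative cut of 4. The 29 intervals before the first block stood at 0.570 to 2.17 times, and the 4 after the second, at the AHI1 start, at 0.656 to 1.64 times. No interval lay in the 54.0 kb before the first block, the 12.9 kb after it, the 26.6 kb before the second or the 57.0 kb after it, so the edges are known only to these gaps. The copy number of this DNA was not tested.

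**Figure D2:**
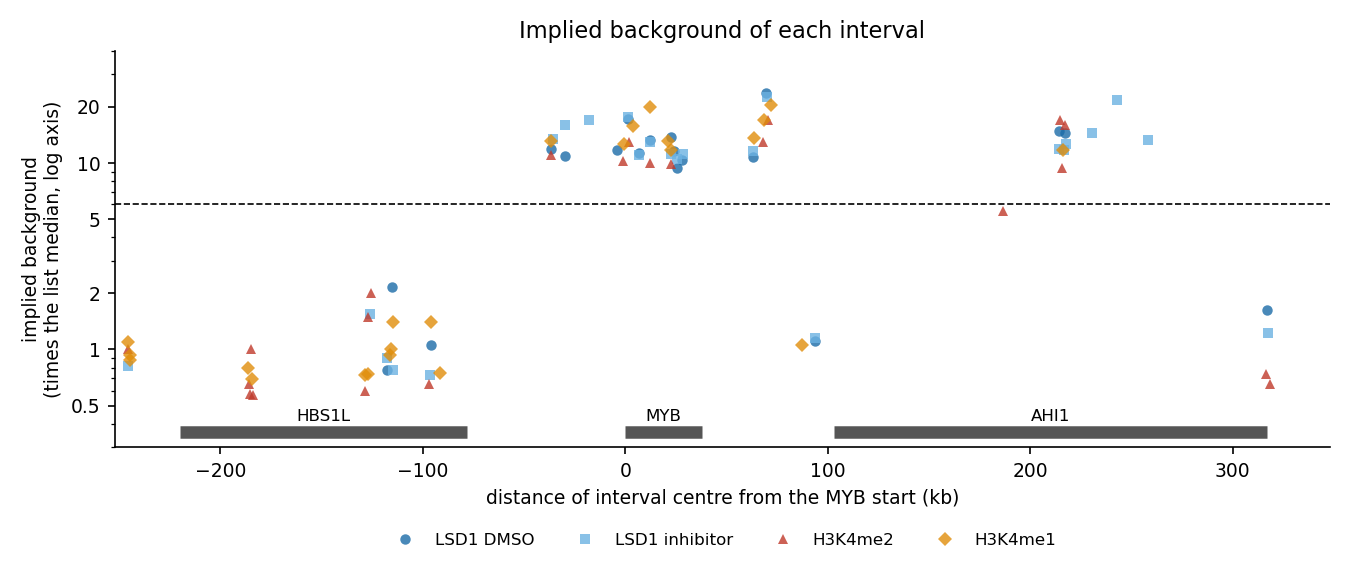
Background implied by fold and p-value, as multiples of the median of each list (vertical axis, log scale), against distance from the MYB start (kb) for the 88 intervals; symbols mark the 4 lists, and the dashed line is at 6 times. Intervals of all 4 lists rise together in 2 blocks at 9.39 to 23.8 times. Between the blocks, the intervals at 87.2 to 93.8 kb lie near 1 and an H3K4me2 interval at 186.6 kb lies at 5.50.

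The highest-scoring histone intervals of the raised blocks had moderate folds. The H3K4me2 interval over the MYB start, chr6:135500868-135507122, had the highest −log10 q of the whole H3K4me2 list, 173.4, and the H3K4me1 interval chr6:135572282-135575969, beyond the MYB end, had the highest of the whole H3K4me1 list, 198.1. By fold these intervals ranked 13875 of 81619 (fold 11.3) and 8802 of 94689 (fold 8.61). Elsewhere in the genome, 3088 H3K4me2 intervals had a fold within 5% of 11.3, and their −log10 q ran from 18.7 to 89.4 with a median of 24.5. Their median pileup was 30 fragments over a background of 1.73, against 265 over 22.5 at MYB. For H3K4me1, 2994 intervals with a fold near 8.61 had a median −log10 q of 16.5 and at most 49.4, with a median pileup of 24 against 363. At a like fold, a raised background gives a higher pileup and −log10 q by calculation. These contrasts therefore restate how the locus was chosen and are no test. Among the 100 highest scores the locus had 2 H3K4me2 and 4 H3K4me1 intervals, and among the 1000 highest folds it had 0 of either mark. High scores were not general in the raised blocks: 4 of the 10 raised H3K4me2 intervals had a −log10 q of 3.27 to 7.09. The 14 raised LSD1 peaks with DMSO had a median −log10 q of 2.90, below the 5.96 of the others in the locus, while with inhibitor the medians were 6.24 and 3.91.

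**Figure D3:**
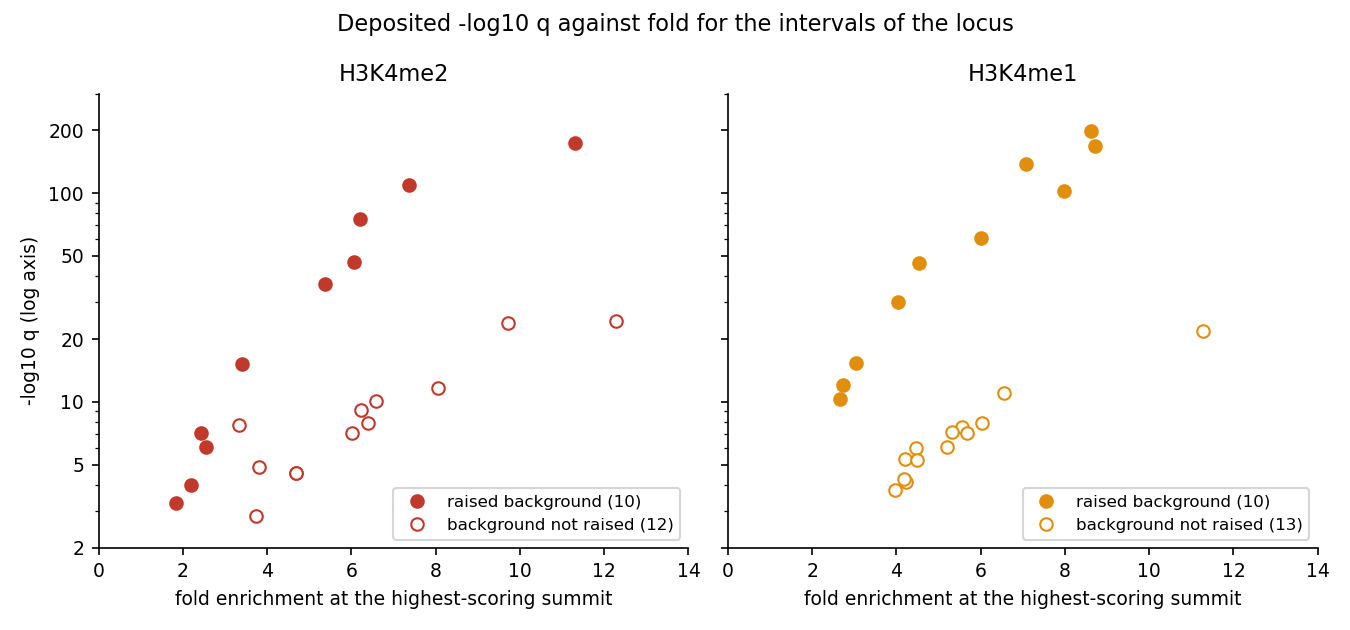
Deposited −log10 q (vertical axis, log scale) against fold at the highest-scoring summit (horizontal axis) for the 22 H3K4me2 and 23 H3K4me1 intervals of the locus; filled points are the 10 in each list with raised background. At a like fold the filled H3K4me1 points lie above the open ones: the interval of fold 6.01 has a −log10 q of 60.7 and that of fold 6.03 has 7.97. This follows from how the background is derived from fold and p-value.

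At the MYB start, H3K4me2 and LSD1 lay over the start while H3K4me1 was interrupted there. The H3K4me2 interval was 6255 bp wide, the widest of its list in the locus, and ran from 1.13 kb before the start to 5.12 kb beyond it with 19 summits. Its highest summit lay 34 bp before the start, which is known to 1 kb only. H3K4me1 had an interval of 462 bp that ended 0.481 kb before the start (fold 2.67) and another, chr6:135504386-135507570, that began 2.39 kb beyond it. The 2866 bp between them had no H3K4me1 interval. In that gap H3K4me2 had 7 summits with folds from 7.12 to 11.3 (median 8.64), against 3 summits of 4.09 to 7.99 before it and 9 of 3.59 to 9.85 (median 5.48) after it. The H3K4me1 interval beyond the gap had 11 summits with folds from 2.43 to 4.75. The highest H3K4me2 fold and the highest median fold thus lay in the stretch where H3K4me1 had no interval. High H3K4me2 ran on beyond it, with summits of fold 9.85 and 8.27 at 2.49 and 2.595 kb. The top pileup was 265 in the gap and after it, and the marks overlapped from 2.39 to 5.12 kb. The background under the H3K4me2 summits of the gap was 18.4 to 35.5 fragments, and its part in the H3K4me1 gap was not tested.

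LSD1 covered the MYB start in both libraries with nearly the same interval. With DMSO it was chr6:135501678-135505363 (3686 bp, fold 2.83, −log10 q 9.98), and with inhibitor chr6:135501370-135505370 (4001 bp, fold 2.74, −log10 q 12.2). Both reached from the start across the H3K4me1 gap and into the H3K4me1 interval beyond it. By score they ranked 581 of 45188 and 788 of 49597, and by fold 44616 and 49070, near the bottom of each list.

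Inside MYB the marks changed order. About 12 kb into the gene, H3K4me1 formed an interval of 5779 bp, chr6:135511195-135516973, the widest of its list in the locus and rank 14 of 94689 by score (fold 7.06, −log10 q 137.5). H3K4me2 there spanned 2896 bp with a fold of 6.06 and a −log10 q of 46.6, rank 3084 of 81619. About 22 kb into the gene, H3K4me1 at chr6:135523183-135526199 reached a fold of 7.98 (rank 47 by score), and H3K4me2 spanned 1605 bp with a fold of 5.38 (rank 6497). H3K4me2 lay wholly within the span of H3K4me1 at both places. At the start the marks overlapped only in part. Depth is unknown and antibodies differ, so folds of the marks are set side by side and not tested against each other.

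LSD1 was found at both intragenic places in both libraries. At the first, the fold was 2.53 with DMSO and 2.45 with inhibitor, and at the second 2.72 and 2.63. In addition, 3 LSD1 peaks shared by both libraries lay in MYB on neither mark, at 6.70, 25.7 and 28.1 kb by the DMSO centre. These were weak, with folds from 1.95 to 2.14 and −log10 q from 1.21 to 1.99 with DMSO, and folds from 2.11 to 2.26 and −log10 q from 2.91 to 3.63 with inhibitor. All LSD1 peaks of the MYB body, 7 with DMSO and 6 with inhibitor, had a raised implied background, which for LSD1 is approximate at best.

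Between MYB and AHI1, the longest marked site of the locus lay from 66.7 to 74.0 kb beyond the MYB start, past the end of the gene. Here H3K4me1 had 2 intervals, chr6:135568683-135572106 (fold 8.71, −log10 q 168.2, rank 3) and chr6:135572282-135575969 (fold 8.61, rank 1), with 7 and 9 summits. H3K4me2 at chr6:135570326-135574594 had 10 summits, a fold of 7.37 and a −log10 q of 109.0, rank 36 of 81619. LSD1 spanned 3928 bp with DMSO (fold 2.42, −log10 q 8.70) and 4610 bp with inhibitor (fold 2.56, −log10 q 13.2), its widest peaks of the locus in both lists. A weaker site before it, at 62.1 to 64.0 kb, had H3K4me1 (fold 2.74) and LSD1 in both libraries (folds 2.39 and 1.92) but no H3K4me2 interval.

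The strongest LSD1 peak of the locus by fold lay apart from the marks. At chr6:135594836-135596207 with DMSO the fold was 8.56, rank 107 of 45188 by fold and 191 by score (−log10 q 13.4). With inhibitor it was chr6:135594972-135596660, with a fold of 7.44, rank 655 of 49597 by fold and 780 by score (−log10 q 12.3). Its background was ordinary, at 1.11 and 1.16 times the list medians. Neither mark overlapped it. The nearest marked interval was H3K4me1 at chr6:135588882-135589527, with a fold of 4.48. Such a shared LSD1 site with neither mark within 1 kb is not rare: this combination made up 6 of 27 sites of the locus and 8.13% of 75139 sites in all, where a site is a group of intervals of the 4 lists joined over gaps of up to 1000 bp.

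In the HBS1L-MYB stretch of 78 kb, the first interval on the HBS1L side began 37.3 kb before the MYB start, and none lay in the 54.0 kb before it. All 4 lists met at 37.3 to 35.6 kb before the MYB start, where H3K4me1 at chr6:135464672-135466145 had a fold of 4.03 and a −log10 q of 30.1, and H3K4me2 at chr6:135464944-135465221 had a fold of 3.39 and a −log10 q of 15.2. The LSD1 peaks at this site did not overlap each other. The DMSO peak, chr6:135465094-135465397 (fold 1.90, −log10 q 1.24), lay on both marks, and the inhibitor peak, chr6:135466170-135466381 (fold 2.30, −log10 q 5.15), lay on neither. The strongest LSD1 peak of the stretch, about 30 kb before MYB, was shared and lay on neither mark. It had a fold of 3.50 and a −log10 q of 11.5 with DMSO (chr6:135471182-135472970, rank 354 by score) and a fold of 2.57 and a −log10 q of 9.24 with inhibitor (chr6:135471358-135472895, rank 1947). A peak between the stretch's shared peak and MYB was found with inhibitor only (chr6:135483894-135484109, fold 2.38, −log10 q 7.50). One at 4.24 kb before MYB was found with DMSO only (chr6:135497679-135497845, fold 1.95, −log10 q 1.45). Neither lay on a mark.

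At HBS1L, no interval of any list lay within 2 kb of the upper end of the gene body, and the nearest were 13.4 to 19.0 kb away. H3K4me2 was strongest inside the body, at a site 47.5 to 50.9 kb below that end. Its main interval, chr6:135374191-135375703, had a fold of 9.73 and a −log10 q of 23.9. This distance is close to the 47.6 kb by which the body exceeds the RefSeq gene. If hg19 keeps the GRCh38 distance between the MYB and HBS1L starts, the RefSeq HBS1L start falls within this site. Its hg19 position itself was not used here. H3K4me1 at the site was narrower, covering 534 bp against 2784 bp of H3K4me2, with a fold of up to 6.03. LSD1 was found there with inhibitor only (chr6:135375762-135376481, fold 3.44, −log10 q 2.48). Further into the gene, chr6:135315587-135318969 had the highest H3K4me1 fold of the locus, 11.3, and H3K4me2 folds up to 8.05, with no LSD1 peak in either list.

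With DMSO, no LSD1 peak in the HBS1L body overlapped H3K4me2. The 3 DMSO peaks there were all shared with the inhibitor list. If the RefSeq HBS1L start lies at the H3K4me2 site above, all 3 lie before that start and not inside the RefSeq gene. The peak at chr6:135385713-135387329 overlapped H3K4me1 (fold 6.30, rank 411 by score), and its inhibitor partner had a fold of 6.68 and did not overlap H3K4me1. The peak at chr6:135383889-135384311 had neither mark (fold 6.02), with a fold of 4.55 with inhibitor. The weakest, chr6:135405274-135406483, had folds of 3.44 and 4.21 and overlapped H3K4me1. A weak H3K4me2 interval, chr6:135404794-135405005, lay within 1 kb of this peak. All had an ordinary background, and the first and second had folds above every raised DMSO peak, of which the highest was 3.50.

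At the AHI1 start, H3K4me2 and LSD1 were present and H3K4me1 was not. H3K4me2 at chr6:135817361-135819960 spanned 2600 bp with 6 summits and had the highest H3K4me2 fold of the locus, 12.3, but a −log10 q of only 24.3, rank 14716 of 81619 by score. Its background was 0.738 times the list median. LSD1 overlapped it weakly in both libraries, at a fold of 3.32 in each (−log10 q 1.83 with DMSO and 1.91 with inhibitor). The nearest H3K4me1 interval inside the window was 98.3 kb away, and the first one after the window lay 62.9 kb beyond its edge. The MYB and AHI1 starts therefore had H3K4me2 folds of 11.3 and 12.3, and −log10 q of 173.4 and 24.3, over pileups of 265 and 27 fragments.

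Within the AHI1 body, away from its start, both marks were found at a site 213 to 219 kb from the MYB start and 98.3 kb below the AHI1 start. The one other marked interval there was the H3K4me2 interval at chr6:135688453-135688768 (fold 3.33, −log10 q 7.73). H3K4me1 at chr6:135715352-135720720 spanned 5369 bp with 15 summits (fold 6.01, −log10 q 60.7, rank 401). H3K4me2 had 3 intervals there, the main one at chr6:135718128-135720075 with a fold of 6.20 and a −log10 q of 75.3, rank 305. A narrow LSD1 peak at this site was shared, with a fold of 2.03 with DMSO (chr6:135715922-135716202) and 2.27 with inhibitor (chr6:135715939-135716146). It lay on H3K4me1 but not on H3K4me2. Elsewhere in the site, LSD1 differed in form between the libraries. With DMSO it was a peak of 2897 bp (fold 2.55, −log10 q 6.24), and with inhibitor it was 2 peaks, of 865 bp (fold 3.61, −log10 q 17.2) and 463 bp (fold 1.87, −log10 q 1.84). The peak of 865 bp, chr6:135718281-135719145, had the highest −log10 q of any LSD1 peak in the locus and rank 215 of 49597. Another 3 AHI1 peaks, at 230.7, 243.0 and 258.2 kb, were found with inhibitor only, with folds from 1.91 to 2.45, and none lay on a mark.

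The LSD1 libraries matched at most places of the locus. With DMSO, 16 of 19 peaks (84.2%, 95% Wilson interval 62.4 to 94.5%) met a peak of the inhibitor list, against 63.2% over the whole list. With inhibitor, 17 of 24 (70.8%, 50.8 to 85.1%) met a DMSO peak, against 58.1%. Both intervals hold the value of the whole list. Over the 17 overlapping pairs the fold with inhibitor was 0.734 to 1.42 times that with DMSO (median 0.999), and it was higher in 8 of 17. Over all 29329 pairs in the genome the median was 1.08, with 5% of pairs below 0.774 and 5% above 1.57. At the MYB start and at both intragenic MYB sites on the marks the ratio was 0.966 to 0.968. The largest ratio, 1.42, and 1 of the smallest, 0.734, came from the same AHI1 peak with DMSO that met 2 peaks with inhibitor.

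The 3 DMSO-only peaks were narrow and low in score, while 5 of the 7 inhibitor-only peaks ranked well within the upper part of their list. Those with DMSO only were 167 to 304 bp wide with folds of 1.90 to 2.08 and −log10 q of 1.24 to 1.99, all over a raised background. By score they ranked 21801 to 40296 of 45188. Of the 7 with inhibitor only, 161 to 720 bp wide, 5 lay over a raised background with folds of 1.91 to 2.45, and none of these 5 was on a mark. The −log10 q of the 7 was 2.46 to 7.50. By score, 5 of the 7 ranked 3552 to 11232 of 49597, but these are not the same 5. The raised peak at chr6:135732602-135732762 ranked 30424. The 2 peaks with ordinary backgrounds, at HBS1L (rank 30070) and in the flank before it (chr6:135256105-135256340, fold 4.96, rank 11232), lay on H3K4me2. The LSD1 lists reach down to a −log10 q of 1.00 and 1.01, so a peak near that limit in 1 list, as the DMSO-only peaks were, is not shown to be absent from the other library. With 1 library a group and unknown depth, the inhibitor-only peaks are likewise not shown to be absent with DMSO.

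Most overlap shares of LSD1 and the marks had a Wilson interval that held the value of the whole list. The shares of H3K4me1 intervals that met LSD1 did not. With DMSO, 7 of 19 LSD1 peaks (36.8%, 19.1 to 58.96%) lay on H3K4me2, 10 (52.6%, 31.7 to 72.7%) on H3K4me1, 6 (31.6%) on both and 8 (42.1%) on neither, against 50.4, 41.5, 31.7 and 39.8% over the list. With inhibitor, 9 of 24 (37.5%, 21.2 to 57.3%) lay on H3K4me2, 10 (41.7%) on H3K4me1, 7 (29.2%) on both and 12 (50%, 31.4 to 68.6%) on neither, against 52.9, 39.5, 30.0 and 37.6%. Seen from the marks, 9 of 22 H3K4me2 intervals (40.9%, 23.3 to 61.3%) met LSD1 in each library, against 35.4% with DMSO and 40.8% with inhibitor. For H3K4me1, 10 of 23 intervals (43.5%, 25.6 to 63.2%) met LSD1 in each library, against 23.7 and 23.8%. Of the 16 shares computed, those 2 were the ones whose interval did not hold the value of the whole list, and they, with the shares on both marks, were added after the values were seen. H3K4me1 lay on 16 of 22 H3K4me2 intervals (72.7%, against 63.1%), and H3K4me2 on 13 of 23 H3K4me1 intervals (56.5%, against 47.4%). Wilson intervals cover counting error only, neighbouring intervals are not independent, and wider intervals meet others more often.

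Of the 27 sites, 7 held all 4 lists (25.9%, 13.2 to 44.7%, against 20.3% of all sites), and 6 of these 7 lay over a raised background. They were the site 37 kb before MYB, the MYB start, both intragenic MYB sites, the site beyond the MYB end and the site inside AHI1. The other one, in the HBS1L body, was weak in every list, with folds from 3.44 to 4.46. At the edges of the window, the nearest intervals outside lay 140 to 141 kb before it and 31.5 to 467.5 kb after it. The first intervals inside had folds from 4.96 to 6.59 and the last before the window had folds from 3.67 to 5.86. The last inside had folds from 3.32 to 6.01 and the first after it 3.84 to 5.81.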

How the data were processed

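LSD1, H3K4me2 and H3K4me1 were mapped by ChIP-seq in NCI-H526 cells, with 1 library a group, and groups were taken from the sample descriptions. BWA, Picard and MACS2 2.0 with build hg19 are named in the submitters' processing notes. Depth, duplicate handling and the control were not given in the sources used here. These lists have no header, and columns were read from the MACS2 layout. The deposited score is 10 times the −log10 q, within 1, in 100% of rows. The deposited fold is a ratio of signal to background. Each peak's −log10 q and −log10 p, as deposited by the authors, served with fold and score to describe and rank peaks within a list.

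The LSD1 lists are broad peaks. The histone lists give several summits for an interval, and their 178083 and 175135 rows were reduced to distinct intervals with the values of the highest-scoring row. The smallest −log10 q is 1.00 and 1.01 for LSD1 and 2.02 and 2.01 for H3K4me2 and H3K4me1. Overlap means at least 1 bp. The implied background is the one at which the fold (pseudocount 1) has its Poisson p-value. No such value exists for 11.1% of inhibitor LSD1 rows, and the closest fit was used. Members, lists and thresholds were chosen with earlier results of these data known. Intervals named by position are, for each list, the one at or nearest to each gene start, the 3 highest-scoring, the highest-scoring of each of 5 segments and the widest, and up to 5 shared and 5 unshared LSD1 peaks of the MYB body and the HBS1L-MYB stretch. Others that the text singles out, the sites and the motifs were chosen after their values were seen. Overlap and background code was tested on simulated data. Python 3.11.15, NumPy 2.4.6, SciPy 1.17.1, pandas 2.3.3 and Matplotlib 3.10.9 were used. Alternatives were the higher-scoring 50% of peaks, a reciprocal overlap of 50%, peak centres, only LSD1 peaks with −log10 q at or above 2, assignment by overlap, and no pseudocount. No genome of build hg19 was used here.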

Additional observations from a re-analysis of the deposited data

How the results depend on the processing

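No paired analysis was possible because only 1 library stands for each group, which leaves nothing to pair. By peak centres all 16 shares stayed within their counting intervals, and assignment by overlap moved 0 of 24 values. When LSD1 peaks below a −log10 q of 2 were left out, inhibitor peaks met a DMSO peak in 47.6% of cases, and the other 15 shares stayed within their intervals. Among the higher-scoring 50% of peaks, H3K4me2 lay on H3K4me1 in 90.9% of cases.

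A reciprocal overlap of 50% moved 15 of 16 shares, a stricter rule by construction. DMSO peaks then met inhibitor peaks in 57.9% and the reverse in 45.8% of cases. With DMSO, LSD1 was on H3K4me1 in 10.5%, on both marks in 10.5% and on neither in 78.9%. With inhibitor it was on H3K4me2 in 12.5%, on H3K4me1 in 8.33%, on both in 8.33% and on neither in 87.5%. H3K4me2 lay on H3K4me1 in 18.2% and H3K4me1 on H3K4me2 in 17.4%. H3K4me2 met LSD1 in 18.2% with DMSO and 13.6% with inhibitor, and H3K4me1 in 8.70% with each.

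With no pseudocount, the median background in the MYB body was 5.08 (LSD1, DMSO), 5.69 (LSD1, inhibitor), 5.51 (H3K4me2) and 8.00 (H3K4me1) times the list median, and the count above 6 times fell to 4, 10, 6 and 10 intervals. The raised intervals still stood at 4.21 to 11.1 times and the others at 0.792 to 3.29. Thresholds of 4 and 8 times, added after the values were seen with the counts without a pseudocount and the sites, changed the raised count by at most 1 interval a list. Joined only where intervals touch, 5 of 38 sites held all 4 lists. Depth is unknown, so lists cannot be compared at equal depth.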

Other observations

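The window was chosen by its raised background, so the counts that follow describe where such intervals lie and are no test. Of 52 intervals of chromosome 6 above 6 times their list median, over the 4 lists, 51 lay in the window, and the other was an LSD1 peak with DMSO. In the 1 Mb before the window, none of 14 LSD1 peaks with DMSO, 11 with inhibitor, 24 H3K4me2 and 32 H3K4me1 intervals was raised. In the 1 Mb after it, none of 11, 15, 21 and 41 was raised, and the highest value there was 3.00 times the list median, for H3K4me2. The nearest H3K4me2 interval after the window lay 467.5 kb away, in contrast to LSD1 in both libraries, at 31.5 and 31.98 kb.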
